A study of Caenorhabditis elegans with 24 samples.

Results

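The vacuolar ATPase (V-ATPase) and the lysosome were represented by 36 genes of the 20392 in the count table. They were chosen by name, with earlier results of these data known. They fell into a list of 21 genes for the proton pump, with 9 subunits of the V1 sector and 12 genes of the V0 sector and its accessory proteins, and a list of 15 genes for other lysosomal membrane, hydrolase and sorting proteins. Messenger RNA was measured in intestines dissected from Caenorhabditis elegans on day 1 of adulthood and later, in 24 libraries that formed 6 groups of 4 biological replicates. The Pol I-AID strain carried qzIs15 on chromosome I, in which the rpoa-2 promoter drives RPOA-2 fused to a degron and GFP. RPOA-2 is part of RNA polymerase I (Pol I), and the authors describe the tag as inserted at the endogenous rpoa-2 gene. Intestines of this strain were taken without auxin (0 h, 0 mM) and 12 or 24 h into exposure to 1 mM auxin. The TIR1 strain lacked qzIs15 and was sampled at the same times under the same treatment. Both strains carried ieSi57 on chromosome II, which expresses the auxin receptor TIR1 fused to mRuby from the eft-3 promoter with an unc-54 3'UTR and holds Cbr-unc-119(+), and the labels of the TIR1 strain also list unc-119(ed3) on chromosome III. The eft-3 promoter is active in most somatic tissues, so the degron was not targeted to the intestine alone. Strains outcrossed 1 time gave replicate 1 of each group, and strains outcrossed 3 times gave the other replicates.

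The V-ATPase is a rotary enzyme. Its cytosolic V1 sector hydrolyses ATP, with the catalytic A subunit (vha-13) and the B subunit (vha-12) in a ring and a stalk of further subunits, and this turns the membrane-bound V0 sector, whose ring of c subunits carries protons past an a subunit. The pump acidifies lysosomes, where hydrolases work at low pH, and in the worm intestine it also acts at the apical membrane through the a subunit VHA-6. Intestinal cells of C. elegans hold lysosome-related organelles called gut granules, which need the Rab GTPase GLO-1 and GLO-3.

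The libraries held 3.18 to 29.5 mega counts (M, median 20.8), of which the 6 vitellogenin genes took 67.6% to 79.9%, and 1.03 to 9.01 M counts were left for all other genes. Every comparison uses a pair of quantities: CPM is the count of a gene per M counts of the scaled library size, and FDR is the Benjamini-Hochberg adjusted p of edgeR's quasi-likelihood F-test over the 6903 genes that passed its count filter. Libraries TIR1 0 h replicate 3 and TIR1 24 h replicate 1 were the only ones under 5 M counts. The intestinal identity of the tissue was checked on 7 markers, whose summed level was 9976 to 17454 CPM over all libraries and which all passed the count filter. The protease gene cpr-6 made up most of that sum, with a mean of 13224 CPM, and the other 6 markers averaged 2.78 to 1071 CPM. Body wall muscle markers reached 153 CPM and hypodermal markers 186 CPM in the highest TIR1 0 h library, and germline markers reached 83.5 CPM in the highest Pol I-AID 0 h library. rpoa-2 messenger RNA was at 1.06 ± 0.274 CPM in Pol I-AID, against 0.394 ± 0.194 CPM in TIR1 at 24 h (SD, n = 4 each), which says nothing of the degraded protein. Before auxin rpoa-2 averaged 0.853 ± 0.394 CPM in Pol I-AID, against 0.404 ± 0.303 CPM in TIR1, so the higher mean was there at 0 h too. These levels are low, since 3 counts stood for 0.724 CPM in TIR1 0 h replicate 3 and for 0.764 CPM in TIR1 24 h replicate 1. For rpoa-2 only means are given, without a test. A level in bulk tissue cannot tell fewer cells of a type from less RNA in each cell.

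Of the 21 pump genes 18 passed the count filter, and of the 15 other genes 11 did. The pump genes left out were vha-5 and vha-7 (a subunits) and vha-18 (a second H subunit), which reached at most 6, 7 and 7 counts in any library. The other genes left out were ncr-2 (a homologue of the cholesterol transporter NPC1), ppt-1 (a palmitoyl-protein thioesterase), gba-3 (a glucocerebrosidase) and gana-1 (an alpha-galactosidase homologue), with at most 6, 1, 4 and 4 counts. These 7 genes were at or near the floor of 3 counts at which a gene was taken as not told from absent, and no comparison was made for them.

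The subunits of the pump differed widely in level, and the order of the levels can be read only per kilobase (kb) of exon. vha-2, a c subunit of the proton ring, had the highest mean over all 24 libraries at 116 CPM per kb. The a subunit vha-6 followed at 64.4, the A subunit vha-13 at 56.4, the B subunit vha-12 at 46.9 and the accessory protein vha-20 (the ATP6AP2 homologue) at 30.9 CPM per kb. At the other end of the tested subunits stood vha-9 (F subunit) with 4.51, vha-19 (the ATP6AP1 homologue) with 2.90, unc-32 (a subunit) with 2.68 and vha-3 (c subunit) with 1.65 CPM per kb. Among the 4 a subunits the intestine thus held vha-6 at a level far above unc-32, while vha-5 and vha-7 averaged 0.00867 and 0.0110 CPM per kb. Among the c subunits vha-1 averaged 20.8 CPM per kb, and the c'' subunit vha-4 averaged 12.4. vha-2 and vha-3 encode near-identical proteins, and only uniquely aligned reads were counted, so how reads were split between the 2 genes is uncertain.

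In the other list nuc-1, the lysosomal DNase II that degrades DNA, stood at 300.5 CPM per kb, above every pump gene. It made up 79.8% to 91.3% of the summed CPM of that list, so a sum over the list is mainly the level of this gene. The LAMP-like membrane proteins lmp-1 and lmp-2 followed at 20.9 and 6.45 CPM per kb. The cystine transporter ctns-1 had 3.02, the gut granule gene glo-3 had 2.25, ncr-1 had 2.12 and the mucolipin cup-5 had 1.90 CPM per kb. The lowest of the 11 tested genes was hex-1, a beta-hexosaminidase, at 0.326 CPM per kb.

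**Figure D1:**
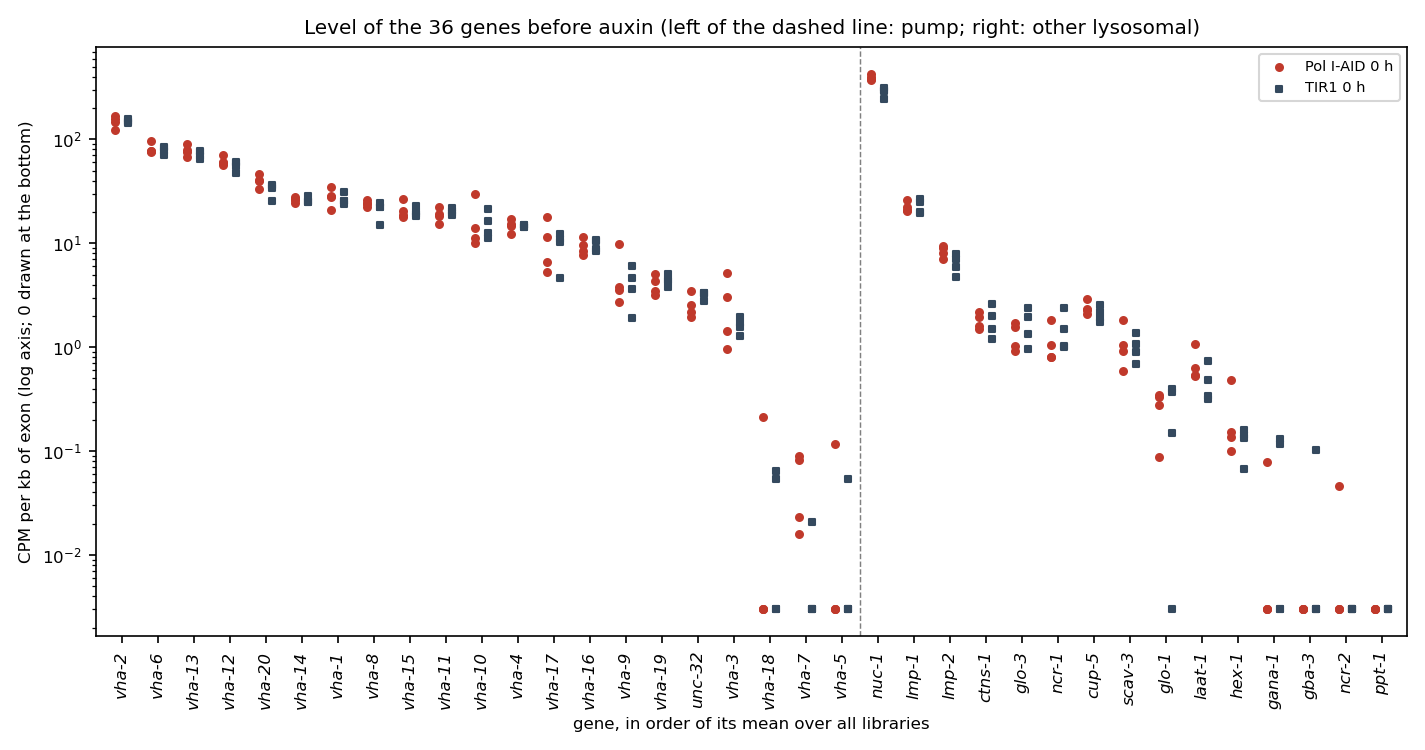
Level of each of the 36 genes in the 4 Pol I-AID and the 4 TIR1 libraries at 0 h, in CPM per kb of exon on a log axis, with pump genes left and other lysosomal genes right of the dashed line and each point 1 library (0 is drawn at the bottom). vha-2 leads the pump genes, vha-18, vha-7 and vha-5 lie lowest among them, and nuc-1 stands above all others.

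The first question was whether loss of Pol I changed the pump relative to auxin-treated control animals. After 24 h on auxin, pump genes as a group had lower levels in Pol I-AID intestines than TIR1 intestines did. The summed pump level was 529.7 ± 46.8 CPM in Pol I-AID, against 749 ± 37.3 CPM in TIR1 (SD, n = 4 each). In TIR1 vha-6, vha-13, vha-2 and vha-12 averaged 175, 160, 114 and 87.2 CPM, so the pump sum is mainly the level of these genes. Of the 18 tested genes, 17 had a fold change below 0 on the log2 scale, and 10 passed an FDR of 0.05, all of them lower. Over all 6903 genes, 6.45% passed as lower and 7.34% as higher. The median log2 fold change of the 18 was -0.50, against -0.00193 over all genes tested. Only vha-9 and vha-10 also passed a 2-fold change (2 of 18), a criterion that 3.36% of all genes met as lower. In 5 of the 18 every Pol I-AID library was below every TIR1 library (vha-6, vha-12, vha-13, vha-14 and vha-15), which held for 7.21% of all genes. Of the 8 tested V1 subunits 5 passed, and of the 10 tested V0 and accessory genes 5 passed.

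The catalytic A subunit vha-13 gave the clearest difference. It was at 96.5, 94.0, 106 and 98.2 CPM in Pol I-AID, against 168, 161, 169 and 142 CPM in TIR1 at 24 h. A narrow range held the 4 Pol I-AID libraries, below the lowest TIR1 library. The level in Pol I-AID was 61.8% of that in TIR1 (log2 fold change -0.69, SE 0.11, FDR 7.93e-05). This call held under all 21 alternatives tried, with a log2 fold change of -0.81 to -0.67 and an FDR of 6.15e-09 to 0.00435. The same-strand neighbour Y49A3A.3 overlaps vha-13 in the WBcel235 annotation, but it had 433 counts in all libraries together, against 76757 for vha-13.

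The B subunit vha-12 had 59.5, 58.2, 67.4 and 73.6 CPM in Pol I-AID, against 84.8, 82.7, 95.0 and 86.3 CPM in TIR1 (log2 fold change -0.43, SE 0.12, FDR 0.0170). The groups did not overlap, and the highest Pol I-AID library, replicate 4, came closest to the TIR1 libraries. The H subunit vha-15, which holds the pump inactive when V1 is released, had 16.9, 16.1, 18.1 and 18.1 CPM in Pol I-AID, against 23.2, 23.9, 25.4 and 24.3 CPM in TIR1 (log2 fold change -0.49, SE 0.14, FDR 0.0169). Both groups of vha-15 were tight and apart. The call was lost in 6 of 21 alternatives for vha-12 and in 5 of 21 for vha-15.

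vha-9 and vha-10, the F and G subunits of the V1 stalk, had the largest fold changes of the pump genes and also the widest spread. vha-9 was at 1.58, 1.38, 2.32 and 0.566 CPM in Pol I-AID, against 2.04, 2.61, 5.55 and 8.32 CPM in TIR1 (log2 fold change -1.69, SE 0.50, FDR 0.0234). TIR1 replicates 3 and 4 were high, while replicates 1 and 2 lay near the highest Pol I-AID library. vha-10 was at 5.67, 4.98, 8.03 and 3.87 CPM in Pol I-AID, against 6.87, 10.1, 16.3 and 16.6 CPM in TIR1 (log2 fold change -1.17, SE 0.37, FDR 0.0344). Again TIR1 replicates 3 and 4 were the high ones and the groups overlapped. The call was lost in 7 of 20 alternatives for vha-9 and in 8 of 21 for vha-10. Without TIR1 24 h replicate 4, as without replicate 3 of that group or without Pol I-AID 24 h replicate 1, 2 or 4, no pump gene passed both the FDR and the 2-fold criterion (edgeR; 14 pump genes had an unadjusted p under 0.05 with all libraries, and 12 passed the FDR with DESeq2).

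Of the remaining V1 subunits, vha-14 (D subunit, in the central stalk) had 21.5, 18.1, 16.6 and 18.1 CPM in Pol I-AID, against 23.4, 25.9, 22.6 and 22.8 CPM in TIR1 (log2 fold change -0.35, SE 0.12, FDR 0.0629). The groups of vha-14 did not overlap, but the FDR was above 0.05. vha-11 (C subunit) had 18.2, 16.3, 20.1 and 13.6 CPM in Pol I-AID, against 26.7, 20.6, 22.9 and 19.8 CPM in TIR1 (log2 fold change -0.39, SE 0.16, FDR 0.105), with 1 Pol I-AID library above the lowest TIR1 library. vha-8 (E subunit, in the peripheral stalk) had 11.8, 15.5, 16.5 and 16.1 CPM in Pol I-AID, against 14.5, 24.3, 27.2 and 18.7 CPM in TIR1 (log2 fold change -0.52, SE 0.20, FDR 0.0862), and TIR1 replicate 1 was among the Pol I-AID libraries.

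In the V0 sector the intestinal a subunit vha-6 had 137, 121.7, 156 and 128 CPM in Pol I-AID, against 172, 181, 169 and 176 CPM in TIR1 (log2 fold change -0.36, SE 0.11, FDR 0.0284). The TIR1 libraries lay close together and above all Pol I-AID libraries. The difference was smaller than for most other pump genes that passed, and the call was lost in 9 of 21 alternatives. unc-32, the a subunit with a broad role in neurons, had 6.58, 7.74, 8.25 and 8.96 CPM in Pol I-AID, against 6.62, 9.76, 8.30 and 7.58 CPM in TIR1 (log2 fold change -0.05, SE 0.17, FDR 0.903). Its groups overlapped over nearly their whole range. vha-5 and vha-7 had no count in the 4 Pol I-AID libraries at 24 h, and in TIR1 vha-7 had counts in 1 library (0.0871 CPM) and vha-5 in none.

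In the proton ring, 3 of the 4 genes had lower means in Pol I-AID. vha-2 was at 75.6, 60.4, 92.4 and 85.9 CPM in Pol I-AID, against 91.9, 120.1, 129.8 and 114 CPM in TIR1 (log2 fold change -0.54, SE 0.17, FDR 0.0301). Its lowest TIR1 library, replicate 1, lay just below the highest Pol I-AID library. vha-1, which lies next to vha-2 on the same strand, was at 11.1, 11.03, 15.7 and 11.8 CPM in Pol I-AID, against 13.2, 18.3, 18.3 and 20.9 CPM in TIR1 (log2 fold change -0.53, SE 0.24, FDR 0.163). vha-4 was at 7.13, 8.69, 12.2 and 6.79 CPM in Pol I-AID, against 9.67, 12.9, 14.8 and 15.03 CPM in TIR1 (log2 fold change -0.60, SE 0.20, FDR 0.0458), and its call was lost in 11 of 21 alternatives. vha-3 was at 1.46, 0.689, 1.30 and 0.755 CPM in Pol I-AID, against 0, 0.932, 0.970 and 1.31 CPM in TIR1, with a log2 fold change of 0.21 (SE 0.52, FDR 0.853). It was the only tested pump gene with a fold change above 0, at a level of about 1 CPM in each group and no count in TIR1 replicate 1. That library held 4.68 M counts and its floor of 3 counts was 0.764 CPM, so the 0 there sets the level of vha-3 only loosely.

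Among the rest of V0, vha-16 (d subunit, which links V0 to the stalk) had 6.76, 7.16, 5.99 and 6.13 CPM in Pol I-AID, against 13.5, 6.28, 9.92 and 10.98 CPM in TIR1 (log2 fold change -0.62, SE 0.20, FDR 0.0360). TIR1 replicate 2 fell among the Pol I-AID libraries, and the call was lost in 14 of 21 alternatives. The accessory gene vha-20 had 27.4, 26.1, 35.0 and 28.9 CPM in Pol I-AID, against 43.8, 41.1, 48.6 and 34.6 CPM in TIR1 (log2 fold change -0.52, SE 0.14, FDR 0.0155). Here Pol I-AID replicate 3 was just above TIR1 replicate 4, and the other libraries were apart. The second accessory gene, vha-19, gave -0.20 (SE 0.23, FDR 0.655), and the e subunit vha-17 gave -0.26 (SE 0.35, FDR 0.710) on the log2 scale. vha-17 shares exon sequence on the opposite strand with nspg-11, which had 18382 counts against 2881 for vha-17, and the library kit does not mark strand, so the values of vha-17 are uncertain. otub-4 on the opposite strand of vha-19 had 327 counts against 3550.

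**Figure D2:**
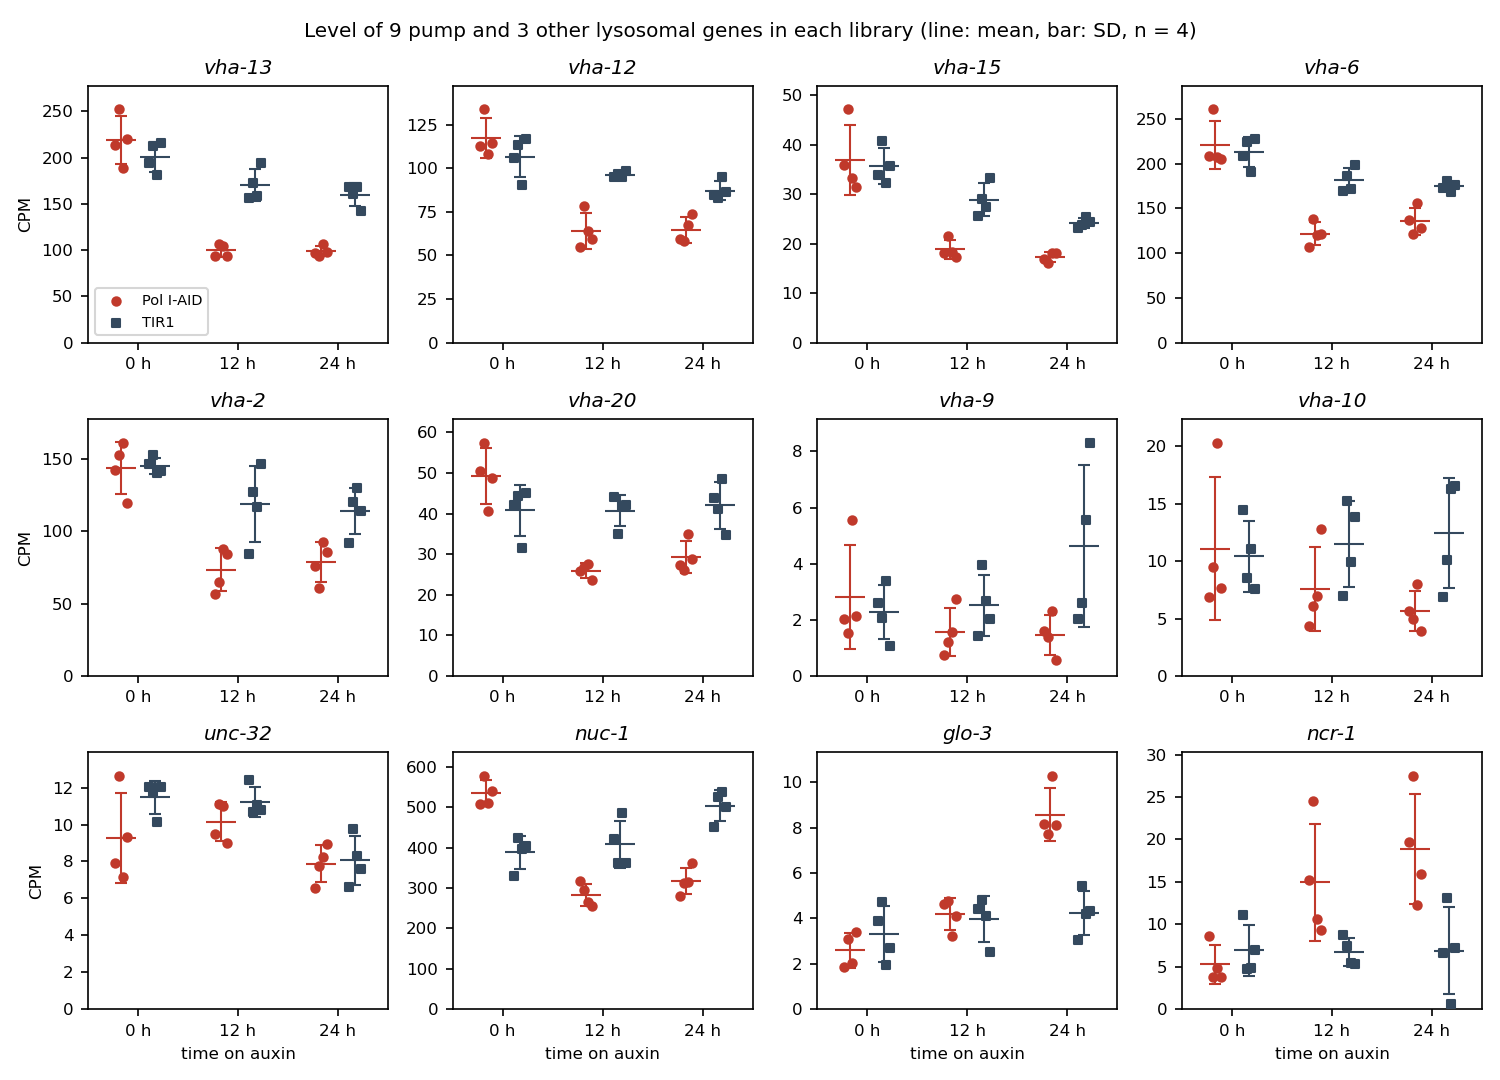
CPM of 9 pump genes and 3 other lysosomal genes (nuc-1, glo-3, ncr-1) at 0, 12 and 24 h in each Pol I-AID library (circles, left) and TIR1 library (squares, right), with the mean as a line and the SD of 4 libraries as a bar. vha-13 averages 98.7 ± 5.22 CPM at 24 h in Pol I-AID, against 159.8 ± 12.5 CPM in TIR1, unc-32 overlaps at every time, and glo-3 and ncr-1 average higher in Pol I-AID at 24 h.

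The number of pump genes past the threshold at 24 h depended on single libraries, while the direction of the group did not. The count was 10 with all libraries, 1 without Pol I-AID 24 h replicate 2, 3 without Pol I-AID 24 h replicate 1, 5 without Pol I-AID 24 h replicate 4, and 4 without TIR1 24 h replicate 3 or replicate 4. The median log2 fold change of the list stayed between -0.54 and -0.44 with any library or replicate number left out. Within the batch of strains outcrossed 3 times (replicates 2 to 4) the count was 4 and the median -0.50. The batch outcrossed 1 time holds 1 library per group and allows no value of its own. Without the 2 libraries under 5 M counts, an alternative chosen after seeing the data, the count was 10.

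Exon width moved with the strain difference at 24 h, so the pump was also compared with genes of its own width. The 715 tested genes under 750 bases showed a median of -0.62 (log2 fold change, 24 h), and 75.8% of them were below 0. Genes of 750 to 1499, 1500 to 2999 and at least 3000 bases had medians of -0.02, 0.03 and 0.16. The shortest class held 4 pump genes (vha-3, vha-9, vha-10 and vha-17). Their median of -0.71 lay near that of the class, but they ran widely, from -1.69 to 0.21. The 7 pump genes of 750 to 1499 bases had a median of -0.53 and ran from -0.62 to -0.35, and the 6 of 1500 to 2999 bases had a median of -0.41 and ran from -0.69 to -0.20. In both of these classes 4 pump genes passed the FDR as lower, where 6.30% and 6.11% of all genes of the class did.

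When the trend with width was removed from each library, 11 of the 18 pump genes passed as lower and the median was -0.50. vha-13 then had a log2 fold change of -0.81 (FDR 5.80e-06), vha-12 of -0.48 (FDR 0.00682) and vha-6 of -0.47 (FDR 0.00730). The 4 short genes moved most, all of them upward: vha-9 went to -1.01 (FDR 0.0288), vha-10 to -0.82 (FDR 0.0128), vha-17 to 0.34 (FDR 0.335) and vha-3 to 0.81 (FDR 0.295). vha-10 thus no longer reached a 2-fold change, and vha-14 was added to the genes that passed, at -0.37 (FDR 0.0460). The part of exon width in the values of vha-9 and vha-10 before removal was not tested beyond this.

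**Figure D3:**
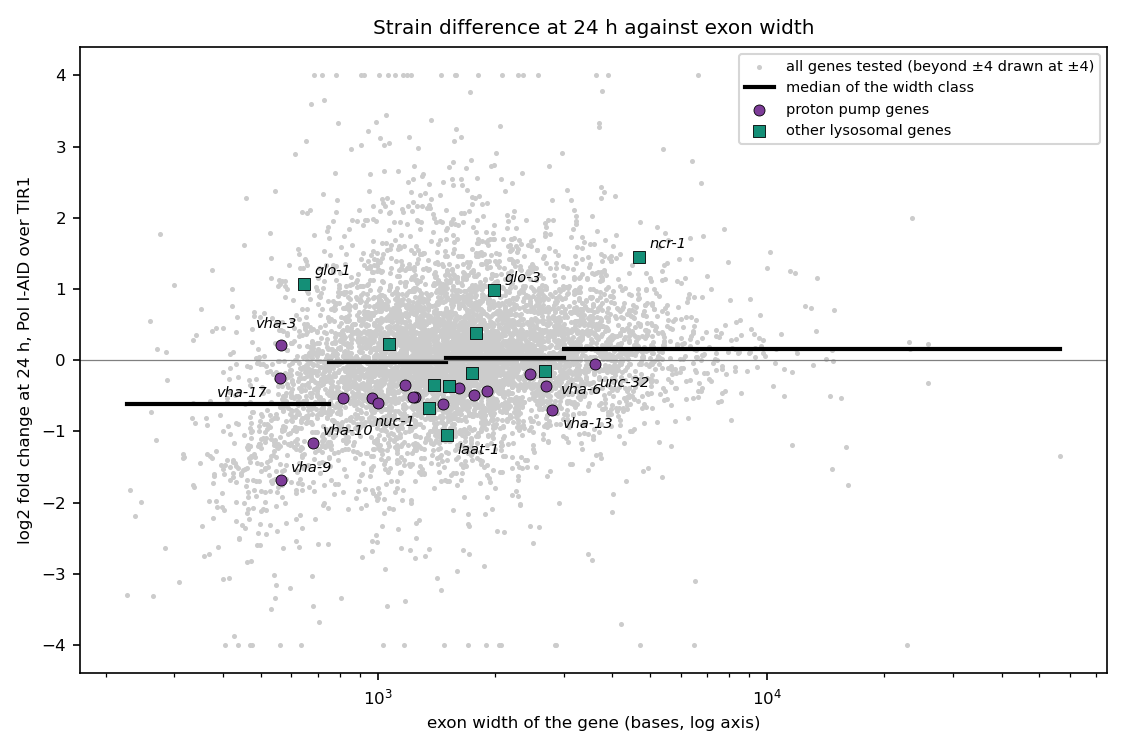
Log2 fold change of Pol I-AID over TIR1 at 24 h against exon width in bases (log axis) for all 6903 tested genes (grey), pump genes (circles) and other lysosomal genes (squares), with the median of each width class as a line. Genes under 750 bases, vha-9 and vha-10 among them, lie lower as a class, at -0.62, while the other tested pump genes from vha-1 to vha-13 lie below classes whose medians are near 0.

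The pump genes were already lower after 12 h. The summed pump level was 513 ± 49.8 CPM in Pol I-AID, against 792 ± 78.2 CPM in TIR1 at 12 h (SD, n = 4 each). Of the 18 genes 9 passed the FDR, all lower, where 2.43% of all genes passed as lower and 2.96% as higher. The median log2 fold change was -0.59, and -0.00659 over all genes tested. In 8 of the 18 every Pol I-AID library was below every TIR1 library, against 4.81% of all genes. The strain difference of the shortest width class was 0.12 at 12 h, so at this time short genes did not share the direction of the pump, and removing the trend left the median at -0.59 with 10 genes past the FDR.

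vha-13 was again the clearest, with 93.6, 107, 104 and 94.1 CPM in Pol I-AID, against 156, 173, 159 and 194 CPM in TIR1 at 12 h (log2 fold change -0.77, SE 0.11, FDR 5.75e-05). vha-6 had 107, 138, 119.8 and 121.9 CPM in Pol I-AID, against 170.0, 187, 171 and 199 CPM in TIR1 (log2 fold change -0.58, SE 0.11, FDR 0.00194). Neither gene's groups overlapped, and both calls held under all 21 alternatives. vha-12 had 54.6, 78.3, 63.9 and 59.2 CPM in Pol I-AID, against 95.0, 96.8, 95.3 and 98.4 CPM in TIR1 (log2 fold change -0.59, SE 0.12, FDR 0.00338). vha-20 had 25.8, 26.8, 27.7 and 23.6 CPM in Pol I-AID, against 44.0, 35.1, 41.9 and 42.1 CPM in TIR1 (log2 fold change -0.65, SE 0.14, FDR 0.00617). In both genes the highest Pol I-AID library stayed below the lowest TIR1 library.

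A further 5 pump genes passed at 12 h. vha-15 was at 18.1, 21.6, 18.4 and 17.3 CPM in Pol I-AID, against 25.6, 29.1, 27.4 and 33.4 CPM in TIR1 (log2 fold change -0.62, SE 0.13, FDR 0.00595). vha-16 was at 6.18, 7.26, 8.28 and 6.97 CPM in Pol I-AID, against 9.66, 11.1, 12.4 and 14.5 CPM in TIR1 (log2 fold change -0.73, SE 0.19, FDR 0.0207). The groups were apart for both. vha-2 was at 56.9, 65.2, 87.7 and 84.0 CPM in Pol I-AID, against 84.3, 127, 117 and 147 CPM in TIR1 (log2 fold change -0.69, SE 0.17, FDR 0.0117), with TIR1 replicate 1 among the Pol I-AID libraries. vha-8, which did not pass at 24 h, was at 11.1, 18.8, 18.4 and 12.1 CPM in Pol I-AID, against 19.8, 26.1, 23.5 and 26.3 CPM in TIR1 (log2 fold change -0.67, SE 0.19, FDR 0.0424). vha-14, which also passed only at 12 h, was at 14.8, 18.9, 19.5 and 19.1 CPM in Pol I-AID, against 23.9, 24.6, 26.4 and 28.9 CPM in TIR1 (log2 fold change -0.52, SE 0.12, FDR 0.0103). In both genes the groups did not overlap at 12 h. vha-9 and vha-10, the 2-fold genes of 24 h, gave -0.68 (SE 0.48, FDR 0.581) and -0.60 (SE 0.36, FDR 0.464) at 12 h. The count of 9 was 5 without Pol I-AID 12 h replicate 1, and 6 to 11 without any other single library. Within the strains outcrossed 3 times it was 4, with a median of -0.57. Fitting the 12 h groups alone left 3 genes past the FDR.

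**Figure D4:**
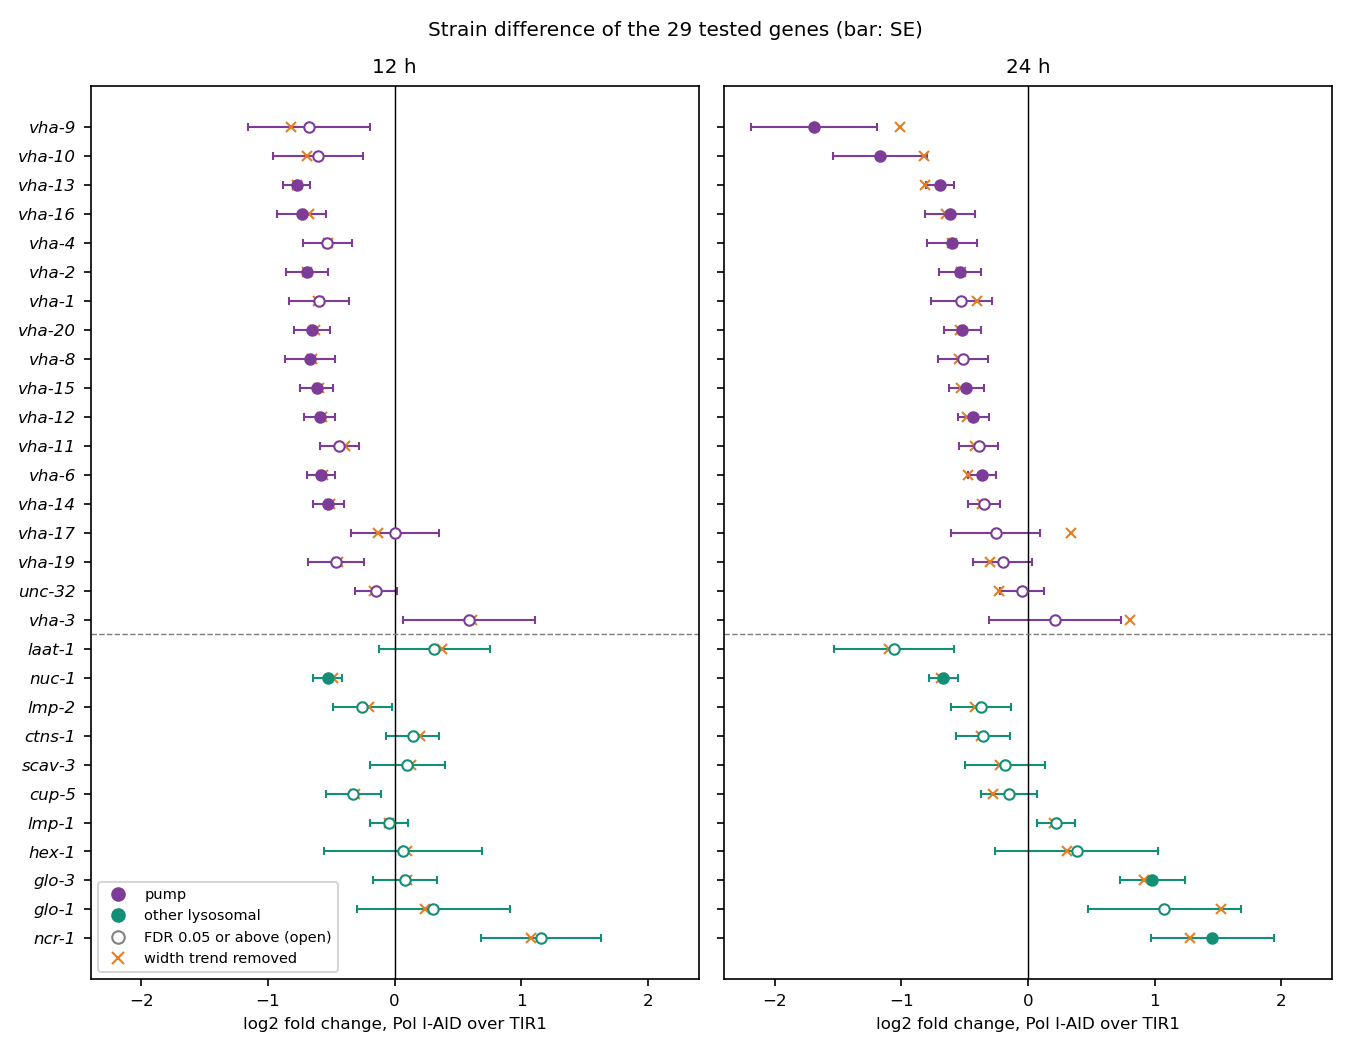
Log2 fold change of Pol I-AID over TIR1 at 12 and 24 h for the 29 tested genes, pump genes above and other lysosomal genes below the dashed line, with the SE as a bar, filled symbols for an FDR under 0.05 and crosses for the value with the width trend removed. Pump genes lie mostly between -0.80 and -0.30 at both times, while the other lysosomal genes lie on both sides of 0.

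Before auxin no pump gene passed between the strains. The summed level was 970.4 ± 86.8 CPM in Pol I-AID, against 924 ± 61.8 CPM in TIR1 at 0 h (SD, n = 4 each). The median log2 fold change of the 18 genes was 0.08. The count was 0 in edgeR and in DESeq2, and no pump gene had an unadjusted p under 0.05, while 0.159% of all genes passed as lower and 0.0579% as higher. vha-13 had 219 ± 25.9 CPM in Pol I-AID, against 201 ± 16.2 CPM in TIR1, and vha-6 had 221 ± 26.7 CPM in Pol I-AID, against 213 ± 17.1 CPM in TIR1 (SD, n = 4 each). Their groups overlapped.

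The difference between the strains was then tested for a change from before auxin, which takes the state at 0 h into account. From 0 to 24 h the strain difference of 3 of the 18 pump genes fell at an FDR under 0.05 (vha-12, vha-13 and vha-20), against 3.42% of all genes that fell and 4.24% that rose. vha-13 changed by -0.82 (SE 0.15, FDR 0.00112), vha-20 by -0.78 (SE 0.20, FDR 0.0153) and vha-12 by -0.57 (SE 0.17, FDR 0.0387) on the log2 scale. From 0 to 12 h it fell in 4 (vha-6, vha-12, vha-13 and vha-20), against 1.06% of all genes that fell and 1.88% that rose. vha-13 changed by -0.90 (SE 0.15, FDR 9.74e-04), vha-20 by -0.92 (SE 0.20, FDR 0.00956), vha-12 by -0.73 (SE 0.17, FDR 0.0157) and vha-6 by -0.63 (SE 0.16, FDR 0.0236). The medians over the 18 genes were -0.55 to 24 h and -0.67 to 12 h, against -0.02 and -0.05 over all genes tested. The call for vha-13 held under all 29 alternatives at both times, and the other calls were each lost in some, from 3 of 29 for vha-12 to 12 h up to 15 of 29 for vha-12 to 24 h.

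How much each strain changed over time was compared next. These comparisons share the 0 h libraries of a strain, and those at 12 and 24 h share them with each other. Animals at 0 h were without auxin, while those at 12 and 24 h were older, had been transferred and were on auxin. Auxin, transfer and age therefore cannot be told apart in a change over time. From 0 to 24 h in Pol I-AID 14 of the 18 pump genes fell, 4 of them at least 2-fold (vha-13, vha-15, vha-16 and vha-19). Of all genes 12.6% fell and 15.2% rose, and 6.53% fell at least 2-fold. The count of 4 was 2 without Pol I-AID 0 h replicate 2. It was 7 when replicate 4 of that group or Pol I-AID 24 h replicate 3 was left out. The median log2 fold change of the pump was -0.87, and in 13 of the 18 every library at 24 h was below every library at 0 h, against 13% of all genes. Over 12 h 13 of the 18 fell, with a median of -0.87, where 6.35% of all genes fell and 7.91% rose.

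vha-13 had 96.5, 94.0, 106 and 98.2 CPM at 24 h and 214, 252, 189 and 220.1 CPM at 0 h in Pol I-AID (log2 fold change -1.15, SE 0.11, FDR 1.17e-08). vha-15 had 16.9, 16.1, 18.1 and 18.1 CPM at 24 h and 35.8, 47.2, 33.2 and 31.4 CPM at 0 h (log2 fold change -1.09, SE 0.14, FDR 7.04e-07). vha-6 had 137, 121.7, 156 and 128 CPM at 24 h and 209, 261, 208 and 205 CPM at 0 h (log2 fold change -0.70, SE 0.11, FDR 2.17e-05). The groups were apart for all 3 genes. Over the 3 times the summed pump level in Pol I-AID was 970.4 ± 86.8 CPM at 0 h, 513 ± 49.8 CPM at 12 h and 529.7 ± 46.8 CPM at 24 h. The level at 12 h and that at 24 h differed by less than their SD. The 4 pump genes that did not pass over 24 h were vha-3, vha-9, vha-17 and unc-32, with log2 fold changes of -0.52, -0.92, 0.25 and -0.23.

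Pump genes also fell over time in the TIR1 strain, where auxin, transfer and age changed together. From 0 to 24 h 6 of the 18 fell (vha-11, vha-13, vha-14, vha-15, vha-19 and unc-32), where 6.87% of all genes fell and 9.42% rose, and the median was -0.30. The summed level in TIR1 was 924 ± 61.8 CPM at 0 h, 792 ± 78.2 CPM at 12 h and 749 ± 37.3 CPM at 24 h. vha-19 fell in both strains, with -1.24 (SE 0.23, FDR 1.28e-04) in Pol I-AID and -1.19 (SE 0.23, FDR 7.09e-04) in TIR1, and the change of its strain difference was -0.05 (SE 0.32, FDR 0.961). vha-20 gave -0.75 (SE 0.14, FDR 1.97e-04) in Pol I-AID and 0.04 (SE 0.14, FDR 0.915) in TIR1. In TIR1 no pump gene passed from 0 to 12 h in edgeR or in DESeq2, although 5 had an unadjusted p under 0.05, and the median was -0.23. Of all genes 1.07% fell and 3.58% rose over these 12 h. The TIR1 count of 6 was 3 without TIR1 0 h replicate 2 or 4 or TIR1 24 h replicate 3, 2 without TIR1 24 h replicate 4, and 4 after the width trend was removed.

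**Figure D5:**
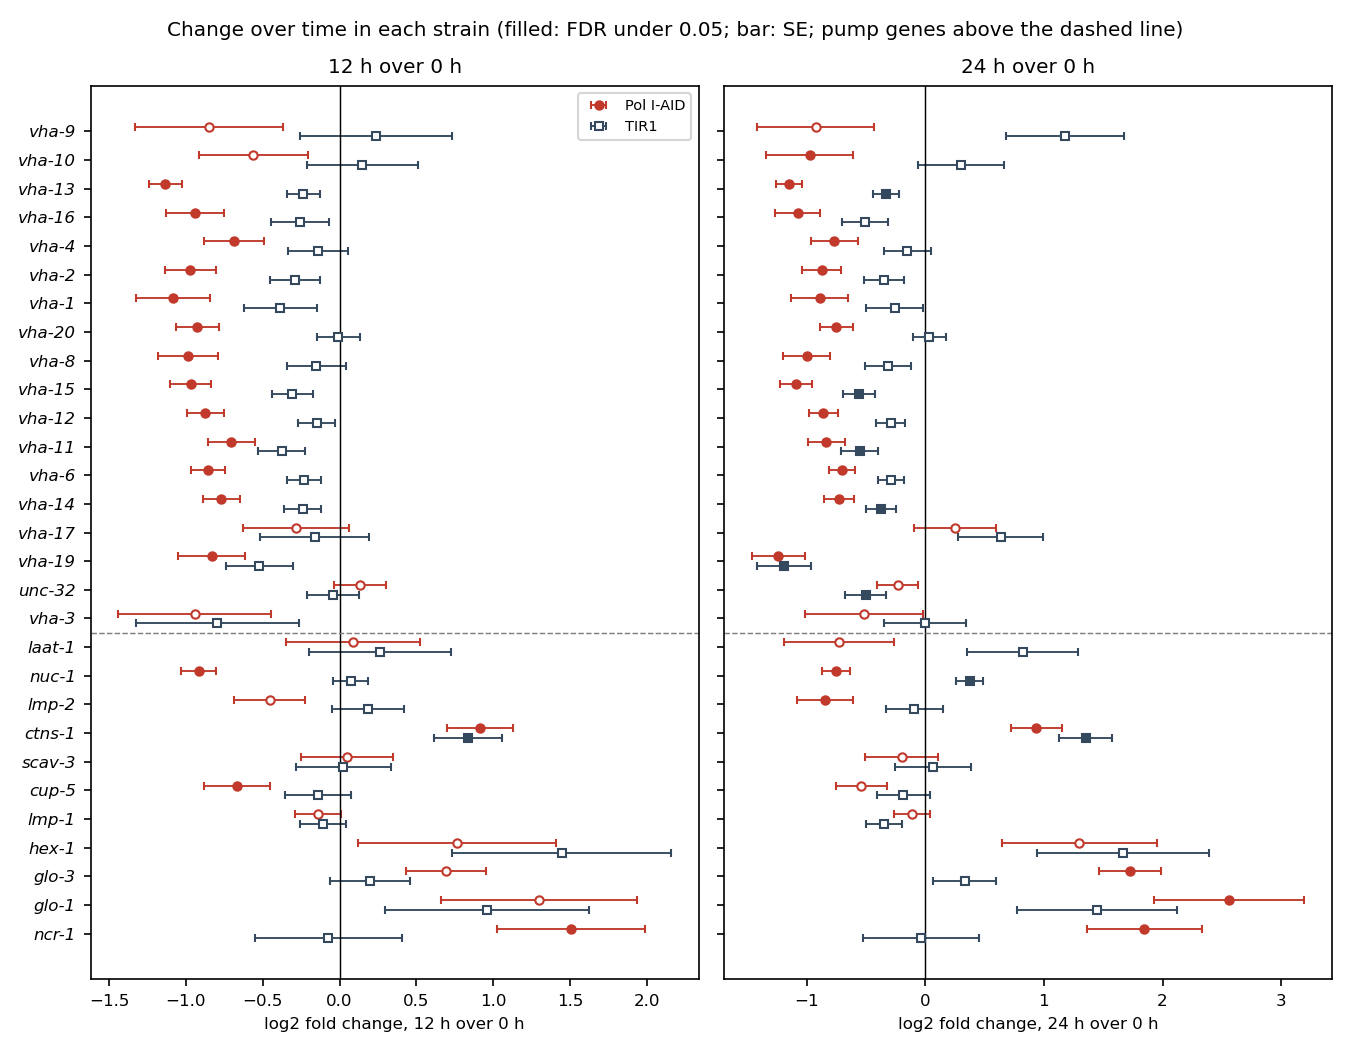
Log2 fold change from 0 h to 12 h (left) and to 24 h (right) for the 29 tested genes in Pol I-AID (circles) and TIR1 (squares), with the SE as a bar and filled symbols for an FDR under 0.05. Nearly all pump genes lie further below 0 in Pol I-AID (median -0.87 at 24 h) than in TIR1 (median -0.30), and ctns-1 is above 0 in both strains.

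The other lysosomal genes did not move as 1 group. At 24 h the level in Pol I-AID was lower for 1 of the 11 tested genes (nuc-1) and higher for 2 (glo-3 and ncr-1), beside the 6.45% and 7.34% of all genes given above. The median log2 fold change was -0.15, which ran from -0.31 without replicate 3 to 0.080 without replicate 2. At 12 h only nuc-1 passed, as lower, and the median was 0.08. Without nuc-1 the summed level of the list was 70.5 ± 5.31 CPM in Pol I-AID, against 54.5 ± 8.37 CPM in TIR1 at 24 h (SD, n = 4 each). Most of this gap lay in ncr-1, with 18.9 ± 6.52 CPM in Pol I-AID against 6.89 ± 5.09 CPM in TIR1. The call for ncr-1 was lost in most alternatives, so the sum shows no rise of the list as a whole. At 0 h none of the 11 passed in edgeR and the median was 0.08. There 1 gene had an unadjusted p under 0.05 (nuc-1), and DESeq2 called that gene.

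The order of the strains for nuc-1 was opposite before and during auxin. At 0 h it was at 508, 578, 511 and 541 CPM in Pol I-AID, against 330.0, 423, 396 and 404 CPM in TIR1 (log2 fold change 0.46, SE 0.11, FDR 0.0935). Every Pol I-AID library was above every TIR1 library at that time, and with the width trend removed the FDR was 0.0338. At 12 h it was at 316, 295, 265 and 255 CPM in Pol I-AID, against 421, 363, 486 and 362 CPM in TIR1 (log2 fold change -0.53, SE 0.11, FDR 0.00595). At 24 h it was at 280.0, 312, 316 and 361 CPM in Pol I-AID, against 451, 525, 539 and 500.3 CPM in TIR1 (log2 fold change -0.67, SE 0.11, FDR 2.36e-04). At both later times every Pol I-AID library was below every TIR1 library. The change of the strain difference was -1.13 (SE 0.16, FDR 5.82e-05) to 24 h and -0.99 (SE 0.16, FDR 7.14e-04) to 12 h. In Pol I-AID nuc-1 fell from 0 to 24 h by 0.75 on the log2 scale (FDR 1.36e-05), while in TIR1 it rose, by 0.38 (SE 0.11, FDR 0.0244). The calls at 24 h and for the change to 24 h held under all alternatives, and that at 12 h was lost in 2 of 21.

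glo-3, which acts in the formation of gut granules, was at 8.17, 7.74, 10.3 and 8.11 CPM in Pol I-AID, against 3.06, 5.41, 4.20 and 4.31 CPM in TIR1 at 24 h (log2 fold change 0.98, SE 0.26, FDR 0.0115). The groups were apart, with Pol I-AID replicate 3 the highest. At 0 h it was at 1.84, 3.09, 2.02 and 3.39 CPM in Pol I-AID, against 3.87, 4.74, 1.93 and 2.68 CPM in TIR1. The strain difference of glo-3 changed by 1.39 (SE 0.37, FDR 0.0189) from 0 to 24 h. This change was lost in 4 of 28 alternatives, which left out replicate number 1, 2 or 3, or TIR1 0 h replicate 2. The call between the strains at 24 h was lost in 2 of 20 alternatives, both of which left out a replicate number, and it held with the width trend removed, at 0.92 (FDR 0.0135). F59F5.3 overlaps glo-3 on the opposite strand with 329 counts against 2085, and without strand their reads cannot be told apart.

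ncr-1, an NPC1 homologue in lysosomal sterol transport, was at 19.7, 27.5, 12.3 and 15.9 CPM in Pol I-AID, against 6.62, 13.1, 0.647 and 7.19 CPM in TIR1 at 24 h (log2 fold change 1.45, SE 0.49, FDR 0.0465). It reached a 2-fold change, as 4.35% of all genes did as higher. TIR1 replicate 3 was far below the other TIR1 libraries and TIR1 replicate 2 was within the Pol I-AID range. The call was lost in 14 of 21 alternatives, and of the 8 single libraries of these groups only TIR1 24 h replicate 2 or Pol I-AID 24 h replicate 3 could be left out with the call kept. Removal of the width trend, which also lost it, gave 1.28 (FDR 0.0567). At 12 h it was at 15.2, 24.6, 10.7 and 9.27 CPM in Pol I-AID, against 8.73, 7.46, 5.43 and 5.26 CPM in TIR1, with no overlap but an FDR of 0.190. The other gut granule gene, the Rab GTPase glo-1, gave 1.08 (SE 0.60, FDR 0.272) at 24 h from at most 23 counts in a library.

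The LAMP-like gene lmp-1 had 23.6, 22.3, 22.4 and 20.8 CPM in Pol I-AID, against 12.7, 22.6, 18.2 and 22.0 CPM in TIR1 at 24 h (log2 fold change 0.22, SE 0.15, FDR 0.385). Its groups overlapped, and it did not pass in any comparison. lmp-2, cup-5, scav-3 (a LIMP-2-like scavenger receptor), ctns-1, hex-1 and laat-1 (a lysosomal lysine and arginine transporter) ran from -1.06 for laat-1 to 0.39 for hex-1 at 24 h, and none passed. laat-1 and hex-1 each had fewer than 50 counts in every library. With the width trend removed, the list held nuc-1 as lower and glo-3 as higher at 24 h.

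Over time the list split in Pol I-AID, where 2 of the 11 genes fell from 0 to 24 h (nuc-1 and lmp-2) and 4 rose (ctns-1, ncr-1, glo-1 and glo-3), where 12.6% of all genes fell and 15.2% rose. glo-1 changed by 2.56 (SE 0.64, FDR 0.00303), ncr-1 by 1.85 (SE 0.48, FDR 0.00475), glo-3 by 1.73 (SE 0.26, FDR 1.12e-05) and lmp-2 by -0.85 (SE 0.24, FDR 0.00757) on the log2 scale. The rise of glo-1 starts near the floor of 3 counts, with 1 to 7 counts in a Pol I-AID library at 0 h and 7 to 23 at 24 h. In TIR1 2 rose, nuc-1 and ctns-1, where 9.42% of all genes rose. The cystine transporter ctns-1 thus rose in both strains, by 0.94 (SE 0.22, FDR 0.00154) in Pol I-AID and 1.35 (SE 0.23, FDR 1.45e-04) in TIR1. Its level was 4.84 ± 0.235 CPM at 24 h and 2.54 ± 0.459 CPM at 0 h in Pol I-AID, and 6.26 ± 0.784 CPM at 24 h and 2.55 ± 0.856 CPM at 0 h in TIR1 (SD, n = 4 each). Over 12 h 2 fell in Pol I-AID (nuc-1 and cup-5) and 2 rose (ctns-1 and ncr-1), where 6.35% of all genes fell and 7.91% rose. In TIR1 1 rose over 12 h (ctns-1), where 3.58% of all genes rose. The counts rested on single libraries: over 24 h in TIR1 1 gene was left without TIR1 0 h replicate 1 or without TIR1 24 h replicate 2, 3 or 4, and over 12 h in Pol I-AID 2 were left without Pol I-AID 0 h replicate 2 or Pol I-AID 12 h replicate 1. Over 12 h in TIR1, ctns-1 did not pass without TIR1 0 h replicate 1 or 4 or without TIR1 12 h replicate 1 or 3.

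Further genes of the lysosome were taken from lists that the 36 genes do not cover. Their counts at 24 h stand beside the 6.45% of all genes that passed as lower and the 7.34% that passed as higher, and shares near those are no result about a list. Of 17 tested hydrolase genes 2 passed, both with lower levels in Pol I-AID. pho-1, an acid phosphatase listed by name and not shown here to act in the lysosome, was at 6.03 ± 1.74 CPM in Pol I-AID against 15.8 ± 1.26 CPM in TIR1 (log2 fold change -1.38, SE 0.19, FDR 1.14e-05). The acid ceramidase homologue asah-1 was at 259.6 ± 21.5 CPM in Pol I-AID against 391 ± 89.4 CPM in TIR1 (log2 fold change -0.59, SE 0.18, FDR 0.0256). Of 18 tested genes for traffic to lysosomes and gut granules 2 were lower and 1 was higher. vps-16, of the HOPS and CORVET tethering complexes, gave -0.94 (FDR 0.00332), the gut granule gene glo-4 gave -0.97 (FDR 0.00213), and ppk-3, the PIKfyve lipid kinase homologue, gave 0.69 (FDR 0.00284). Of 7 tested genes for nutrient sensing at the lysosome 2 were higher, the folliculin homologue flcn-1 with 0.99 (FDR 0.0113) and the transcription factor gene mxl-3 with 0.83 (FDR 0.0311). Both stayed past the FDR with the width trend removed, at 0.79 and 0.83.

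Most of these hydrolases rose over time in both strains. From 0 to 24 h 10 of the 17 rose and 2 fell in Pol I-AID, where 15.2% of all genes rose, with a median log2 fold change of 1.02, and 9 rose and 1 fell in TIR1, where 9.42% of all genes rose, with a median of 1.07. The lysosomal lipase gene lipl-5 gave 2.60 (FDR 4.63e-05) in Pol I-AID and 2.13 (FDR 0.00107) in TIR1. The alpha-glucosidase homologue aagr-1 gave 1.64 (FDR 5.84e-05) in Pol I-AID and 2.14 (FDR 1.62e-05) in TIR1. Over the same time the medians of the pump were -0.87 in Pol I-AID and -0.30 in TIR1. The medians of the pump and of these 17 hydrolases thus had opposite signs in both strains. The hydrolase gene nuc-1, which is not among the 17, gave -0.75 in Pol I-AID and 0.38 in TIR1.

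Markers of the intestine and of other cells were set beside these values. The intestinal actin act-5 was lower in Pol I-AID at 12 h, with a log2 fold change of -0.58 (FDR 0.00739), beside the pump median of -0.59 at that time, and gave -0.26 (FDR 0.190) at 24 h. The other 6 intestinal markers did not pass at either time. At 24 h the summed level of 6 excretory cell markers was 23.4 to 41.4 CPM in Pol I-AID, against 13.7 to 16.3 CPM in TIR1. It came from clh-3 (FDR 0.0839 at 24 h) and exc-5 (FDR 0.549), and aqp-8, exc-4, exc-9 and ceh-6 had at most 2 counts in any library. The summed level of 4 genes listed for coelomocytes was 10.7 to 14.3 CPM in Pol I-AID, against 4.60 to 7.13 CPM in TIR1. It came from cup-4 (FDR 0.0414 at 24 h) and fos-1 (FDR 0.0113), while unc-122 and lgc-26 had at most 6 counts. fos-1 had the higher mean over all libraries (5.19 CPM, and 2.02 CPM for cup-4) and was not shown here to mark coelomocytes. Pharynx markers were at no more than 0.636 CPM in Pol I-AID at 24 h, against up to 24.0 CPM in 1 TIR1 library. With the other listed markers of the excretory cell and of coelomocytes at so few counts, these sums do not show that such cells were present. The part of other cells in the differences, and that of a shared change with act-5, was not tested.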

How the data were processed

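Messenger RNA of dissected intestines was sequenced from a Smart-Seq mRNA kit that does not mark strand. The authors trimmed adaptors, aligned reads to ce10 with spliced alignment and deposited raw counts of uniquely aligned reads over WS220 exons, beside the exon width of each gene. The counting took reads of the same orientation as the gene, although the kit does not mark strand. Among values of 1 to 10 counts, 70.1% to 82.4% were even numbers in the libraries. Counting of both mates would give such an excess, and 1 count should not be read as 1 molecule. A gene with a near-identical copy, an overlapping gene or an antisense gene can therefore lose or gain counts. All 24 columns of counts were matched to labelled samples, and 0 columns had no sample.

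Counts were tested with edgeR 4.0.16 in R 4.3.3 (limma 3.58.1): filterByExpr, TMM scaling and a quasi-likelihood F-test with 1 mean per group over all 24 libraries (18 residual degrees of freedom). P-values were adjusted by Benjamini-Hochberg over the 6903 genes that passed the filter. Genes passed at an FDR under 0.05, and a 2-fold change was counted apart. The SE of a log2 fold change was taken from the F statistic, two-sided. Replicates are labelled as biological, so p-values measure the spread between those samples. To control for width, a lowess trend of log2 counts with log2 exon width (span 0.3) was removed from each library by an offset. The precision of low genes is set by depth, and a floor of 3 counts was used, which covers counting error only and may stand for fewer read pairs.

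Alternatives were DESeq2 1.42.0, its size factors in edgeR, other count filters, vitellogenin genes left out, a replicate block, fits of the compared groups alone, and single libraries or replicate numbers left out. The fits were tested on simulated data. Figures were drawn with matplotlib 3.10.9 in Python 3.11.15. Symbols for 19182 of 20392 gene IDs (94.1%) came from an annotation table, and overlaps of genes from the WBcel235 annotation, which was used for neighbours only since its build differs.

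The 36 genes, the further lists and the marker lists were chosen with earlier results of these data known. Of the 36 genes, values in every library are given for those past the FDR between strains, for all a and c subunits, and for the 3 highest and 3 lowest genes of each list at 24 h with a mean of at least 10 CPM. The other genes are given by range and count.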

Additional observations from a re-analysis of the deposited data

Results flagged for a closer look

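In 9 of 174 groups of 4 libraries (5.17%), 1 library of a tested gene stood apart from the other 3 by more than Dixon's critical value for 4 samples. Chance alone would give about 1 in 20 groups, or 8.7. In Pol I-AID at 24 h, replicate 3 was the highest for vha-1 (15.7 CPM, the others 11.03 to 11.8), for lmp-2 (9.67 CPM, the others 5.94 to 6.42) and for glo-3 (10.3 CPM, the others 7.74 to 8.17). In Pol I-AID at 0 h, replicate 2 was the highest for vha-6 (261 CPM, the others 205 to 209), replicate 3 for vha-9 (5.54 CPM, the others 1.52 to 2.13) and replicate 1 for hex-1 (0.861 CPM, the others 0.179 to 0.271). In Pol I-AID at 12 h, replicate 1 was the lowest for vha-14 (14.8 CPM, the others 18.9 to 19.5) and replicate 4 the highest for vha-17 (7.12 CPM, the others 3.65 to 4.16). In TIR1 at 24 h, replicate 4 was the highest for hex-1 (1.31 CPM, the others 0.431 to 0.509).

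The strain difference changed between times for 10 results in edgeR's test of the change. From 0 to 24 h it fell for vha-12 (log2 change -0.57, FDR 0.0387), vha-13 (-0.82, FDR 0.00112), vha-20 (-0.78, FDR 0.0153) and nuc-1 (-1.13, FDR 5.82e-05), and it rose for glo-3 (1.39, FDR 0.0189). From 0 to 12 h it fell for vha-6 (-0.63, FDR 0.0236), vha-12 (-0.73, FDR 0.0157), vha-13 (-0.90, FDR 0.000974), vha-20 (-0.92, FDR 0.00956) and nuc-1 (-0.99, FDR 0.000714). Both changes use the same libraries at 0 h.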

How the results depend on the processing

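Over 143 results on single genes, 79 passed the FDR and 38 of these passed under every alternative, while no gene that passed changed direction. hex-1, laat-1 and glo-1 had few counts, and the cause of the changes below was not tested unless fewer genes or libraries were fitted.

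With an FDR under 0.05 and no fold criterion, the pump had 10 genes between the strains at 24 h (2 with the 2-fold criterion), 9 at 12 h, 3 for the change of the strain difference to 24 h, 4 for that to 12 h, 14 over 24 h and 13 over 12 h in Pol I-AID, and 6 over 24 h in TIR1. The other list had 3 at 24 h, 1 at 12 h, 1 for the change to 12 h, 6 and 4 over 24 and 12 h in Pol I-AID, and 2 and 1 over the same times in TIR1. Without a count filter, which tests more genes, the pump had 4 genes past the FDR at 24 h, 2 for the change to 12 h and 2 over 24 h in TIR1, and 2 past both criteria for the change to 24 h and for TIR1. The other list then had 2 at 12 h and 2 for the change to 12 h (1 and 2 with 2-fold), 1 and 0 over 24 and 12 h in TIR1, and medians of -0.016 at 12 h and 0 over 24 h in TIR1. With at least 10 counts in every library, which leaves 16 pump genes and 6 of the other list, the 2-fold count at 24 h was 1 for the pump. The other list had 1 gene past the FDR at 0 h, 1 for the change to 24 h by either criterion and 1 past 2-fold over 24 h in Pol I-AID. Its medians were -0.10 at 12 h, -0.21 for the change to 12 h, -0.051 over 24 h and -0.019 over 12 h in TIR1, and -0.24 over 12 h in Pol I-AID.

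With the width trend removed the 2-fold counts at 24 h were 1 for the pump and 0 for the other list, which had 1 gene past the FDR at 0 h. DESeq2 also gave 1 there, and 1 pump gene past 2-fold for the change to 24 h. The other list had 0 genes past 2-fold at 24 h with vitellogenin genes left out, with only the compared groups fitted, and without both libraries under 5 M counts. Those libraries left out also gave a median of 0.20 for the other list at 0 h and 1 pump gene past 2-fold for the change to 24 h. With only the compared groups fitted, 3 pump genes passed at 12 h and 3 over 24 h in TIR1, and the other list had 0 at 12 h, 0 over 12 h in TIR1 and a median of 0.071 over 24 h in TIR1.

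With single libraries or replicate numbers left out, pump genes past the FDR were 1 to 10 between the strains at 24 h, 3 to 11 at 12 h, 1 to 4 for the change to 24 h, 1 to 6 for the change to 12 h and 2 to 5 over 24 h in TIR1. Past 2-fold they were 0 to 2 at 24 h, 0 to 1 for the change to 24 h, and 2 to 7 over 24 h and 1 to 5 over 12 h in Pol I-AID. The pump median over 24 h in Pol I-AID was -0.97 to -0.75. Of the other list 1 to 3 passed at 24 h, 0 to 1 at 12 h, 1 to 3 for the change to 24 h, 0 to 1 for that to 12 h, 1 to 2 over 24 h and 0 to 1 over 12 h in TIR1, and 2 to 4 over 12 h in Pol I-AID. Past 2-fold the other list had 0 to 2 at 24 h, 1 to 3 and 0 to 1 for the changes to 24 and 12 h, and 0 to 1 over 12 h in Pol I-AID. Its medians were -0.31 to 0.080 at 24 h, 0.014 to 0.18 at 12 h, 0.092 to 0.33 at 0 h, -0.63 to -0.16 and -0.20 to 0.042 for the changes to 24 and 12 h, and -0.16 to 0.31 over 24 h and -0.13 to 0.43 over 12 h in Pol I-AID.

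Replicate numbers were not used to pair the samples in the main fit. Same-numbered samples of both strains did share the number of outcrosses, which was 1 for replicate 1 and 3 for the other replicates. Deviations of same-numbered samples of both strains correlated above 0.1 in 2 of 12 pairs (-0.050 to 0.173), and a sample correlated best with its own number in 5 of 12. At 0 h these correlations ran from 0.0349 to 0.161. Weak correlations over all genes cannot show that same-numbered samples share nothing. With the replicate number as a block, 9 pump genes passed at 24 h and 10 at 12 h, and the other list had 2 genes past 2-fold at 24 h. vha-16 at 24 h and vha-10 over 24 h in Pol I-AID no longer passed, and vha-4 at 12 h did.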
